A study of Mus musculus with 21 samples.

Results

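The C/EBP half-site GCAA preceded by thymine, so that the half-site starts with a TpG step, was followed through 21 protein binding microarrays. Each 8-mer name was complemented base by base to give the strand synthesised on the array from 5′ to 3′. The members were the 8-mers made of 3 free bases and TGCAA, together with their reverse complements. Sequences within 1 mismatch of the CRE, PAR or C/EBP palindrome were left out, which removed TTGTGCAA and TTGCACAA. This left 126 members of 65535 8-mers, 63 with the half-site on the synthesised strand (modified-strand members) and 63 with the half-site on the opposite strand (other-strand members).

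The study incubated double-stranded 44K Agilent arrays with the DNA-binding domain of a bZIP protein carrying an N-terminal GST tag and made by in vitro transcription and translation. The labels give mouse as the organism. The second strand of each array was synthesised by primer extension, and its cytosines were plain (C), methylated (5-methylcytosine, 5mC) or hydroxymethylated (5-hydroxymethylcytosine, 5hmC). The modified base therefore lay on the synthesised strand alone, next to unmodified cytosine on the printed strand, and every C in an 8-mer name here was modified on the 5mC and 5hmC arrays. The 10 groups were CREB1 on C (2 arrays), 5mC (1 array) and 5hmC (2), the point mutant CEBPB(V285A) on C, 5mC and 5hmC (2 each), the point mutant CREB1(A297V) on C (2), 5mC (2) and 5hmC (4), and CEBPB on 5hmC (2). CEBPB on C or 5mC was not analysed here. The constructs were isolated domains bound without a partner protein, so the composite site was read here by 1 construct at a time.

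bZIP proteins bind DNA as dimers, each basic region contacting 1 half-site. C/EBP proteins such as CEBPB, a regulator of adipocyte, liver and immune genes, recognise the GCAA half-site, while CREB1, the cAMP-responsive activator, recognises the TGAC half-site of the CRE. In the C/EBP-ATF composite element, TGA from an ATF half-site precedes TGCAA, so the modified-strand member TGATGCAA joins both kinds of site. 5-methylcytosine deaminates to thymine, which turns a CpG step into TpG; thymine carries a methyl group at the same ring position as 5-methylcytosine.

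The modified-strand members that carry the results are shown from 5′ to 3′ with TGCAA in capitals, to show that they differ in the 3 free bases only.
TGA member: tgaTGCAA
TTA member: ttaTGCAA
CTA member: ctaTGCAA
CGA member: cgaTGCAA
CCA member: ccaTGCAA
CTG member: ctgTGCAA
ACG member: acgTGCAA
GGG member: gggTGCAA
The other-strand members below hold TTGCA in capitals, the same site read on the opposite strand. The first and second are the reverse complements of the TGA and TTA members, and the last pair start with TTGCAA and so also hold TGCAA on the modified strand.
reverse complement of TGA: TTGCAtca
reverse complement of TTA: TTGCAtaa
reverse complement of TAT: TTGCAata
reverse complement of TGT: TTGCAaca

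An 8-mer was read from many probes with 35 variable bases each. A member had 10 to 23 probes with a median of 17, and the 126 members rested on 1871 distinct probes of 40330, of which 279 carried more than 1 member. Members are therefore not replicates of each other. The composite TGATGCAA had 17 probes, and the brightest, the middle and the dimmest of them on the CEBPB(V285A) 5mC arrays are shown as the modified strand with the composite in capitals, to show what surrounds the same 8 bases.
brightest probe: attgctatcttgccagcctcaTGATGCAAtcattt
middle probe: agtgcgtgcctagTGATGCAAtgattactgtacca
dimmest probe: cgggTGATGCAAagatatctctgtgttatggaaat
On the 2 CEBPB(V285A) 5mC arrays, the median spot intensity of the brightest probe was 65523 and 53308, that of the middle probe 37322 and 24744.5, and that of the dimmest 5383 and 3973.5. The composite began at base 22 of the brightest probe, 14 of the middle probe and 5 of the dimmest. On the CREB1 5hmC arrays the brightest and the middle probe both read 65528 on each array, at the scanner's ceiling, and the dimmest read 8613 and 15579.5. On the CREB1 C arrays the same probes read 6190 and 5283.5, 3300.0 and 2597.5, and 1656 and 1711.5.

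All further values are the authors' Z-scores, a score per 8-mer and array with a median near 0 over all 8-mers of an array. They were not scaled between arrays, whose highest Z-score ran from 15.7 to 256, so they give relative preference and not affinity. Differences between groups were tested with limma over all 8-mers and called at a Benjamini-Hochberg adjusted p under 0.05. With 2 arrays a group, the arrays did not overlap between the groups in any called member. CREB1 on 5mC had 1 array and is described without a test. Nothing in the labels says that arrays of a group came from separate protein preparations, so the p-values measure the spread between these arrays only. One CREB1(A297V) 5hmC array had 56.0% of its spots below their own background and another a median spot intensity of 76, and the 4 arrays of that group had the lowest highest Z-scores, 15.7 to 31.1.

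The composite member was the strongest of all 65535 8-mers for CREB1 on 5hmC. TGATGCAA had a Z-score of 1.69 and 4.10 on the CREB1 C arrays, 42.4 on the CREB1 5mC array, and 141 and 171 on the CREB1 5hmC arrays. The CEBPB(V285A) arrays gave 42.0 and 47.6 with C, 207 and 202 with 5mC, and 109.9 and 84.0 with 5hmC. CEBPB on 5hmC gave 19.2 and 5.66, arrays that lay far apart. The CREB1(A297V) arrays gave 2.09 and 2.66 on C, 3.83 and 2.12 on 5mC, and 3.30, 2.27, 0.281 and 4.21 on 5hmC, all below every CEBPB(V285A) array. For CEBPB(V285A) the 3 cytosine forms did not overlap, with 5mC highest and C lowest, and for CREB1 the 5hmC arrays stood above the C arrays and the single 5mC array. Of the 17 composite probes, 4 and 6 were at the scanner's ceiling on the CREB1 5hmC arrays, 2 and 0 on the CEBPB(V285A) 5mC arrays and 1 on the CREB1 5mC array. The intensity of those probes is known as a lower bound, so the Z-scores of the composite in these groups, and each difference built on them, are limited by the ceiling to an extent that was not tested. The composite ranked 54 of 65535 for CEBPB(V285A) on C and 6 on both modified forms. Its rank was 29 for CEBPB on 5hmC and 2255 for CREB1 on C.

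The TTA member was the strongest of all 8-mers for a different protein. TTATGCAA had 31.6 and 28.3 on the CEBPB(V285A) C arrays, 181 and 191 on 5mC, and 228 and 125 on 5hmC, where its mean of 177 ± 72.4 (SD, n = 2) ranked 1. On CREB1 it had 0.582 and -0.0275 on C, 18.3 on 5mC, and 20.4 and 34.7 on 5hmC. CEBPB on 5hmC gave 13.0 and 6.19. The CREB1(A297V) arrays gave 1.68 and 1.07 on C, 2.01 and 2.84 on 5mC, and from -0.450 to 4.89 on 5hmC. The 5mC and 5hmC arrays of CEBPB(V285A) overlapped for this member, unlike for the composite. The SD of the 5hmC pair was the largest among the members shown.

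CTATGCAA and CGATGCAA followed on CEBPB(V285A) 5mC. CTATGCAA rose from 2.19 and 1.39 on the CEBPB(V285A) C arrays to 77.6 and 129 on 5mC and stood at 16.9 and 13.7 on 5hmC. CGATGCAA went from 1.95 and 1.64 to 88.6 and 101 and stood at 27.7 and 13.7 on 5hmC. Both were far higher on 5mC than on 5hmC, with no overlap. On CREB1 5hmC they had 27.7 and 27.6 (CTATGCAA) and 18.7 and 19.6 (CGATGCAA). CCATGCAA had 28.0 and 27.7 there, against 0.204 and -0.0213 on the CREB1 C arrays and 8.69 and 8.41 on the CEBPB(V285A) 5hmC arrays. This member was the only one of the 3 whose CREB1 5hmC level exceeded its CEBPB(V285A) 5mC level on 1 array, 23.0 and 28.9. CTGTGCAA, with G before TGCAA, had 0.208 and 0.0615 on CEBPB(V285A) C, 48.4 and 47.0 on 5mC and 7.17 and 3.33 on 5hmC.

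At the other end, GGGTGCAA had group means between -1.32 and 0.902 in all 10 groups, with 0.00605 and 0.570 on CEBPB(V285A) 5mC and -0.856 and -0.659 on CREB1 5hmC. ACGTGCAA, which contains ACGT, the centre of the CRE, was the member with the highest mean on CREB1 C, 5.01 and 7.85. It had 9.25 and 7.22 on CEBPB(V285A) C, 8.93 and 8.55 on 5mC, and 1.89 and 0.617 on 5hmC, and so differed from the other leading members in not being higher on the modified arrays of CEBPB(V285A).

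Over the 63 modified-strand members, the median of the group means was 0.484 for CREB1 on C, 3.14 on its single 5mC array and 3.16 on 5hmC. CEBPB(V285A) had medians of 0.968, 7.83 and 2.62 on these forms. CEBPB on 5hmC had 1.45, and CREB1(A297V) had 0.605, 1.09 and 0.613. Over all 8-mers these medians lay between -0.0107 and 0.0101 for the CREB1, CEBPB and CEBPB(V285A) groups. A mean above 10 was reached by 22 members on CEBPB(V285A) 5mC, 9 on CREB1 5hmC, 7 on CEBPB(V285A) 5hmC, 4 on CREB1 5mC, 2 on CEBPB(V285A) C and 1 on CEBPB 5hmC. The share of all 8-mers above 10 is not given here. As the scores were not scaled between arrays, these counts do not compare the groups. The 63 other-strand members were lower in most groups, with a median of 1.16 on CEBPB(V285A) 5mC, 0.791 on CREB1 5hmC and 1.33 on CEBPB(V285A) 5hmC, but 1.67 on CEBPB 5hmC.

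The level of the members differed with the base directly before TGCAA. The median on CEBPB(V285A) 5mC was 21.6 for the 16 members with A, 7.74 for the 15 with G, 7.04 for the 16 with T and 4.84 for the 16 with C. On CREB1 5hmC the same medians were 11.8 with A, 4.45 with G, 3.03 with T and 1.40 with C. On CEBPB(V285A) 5hmC they were 8.48, 1.76, 2.73 and 1.15 in that order of bases. A was first and C last in these 3 groups, while G and T traded places. Without the TGA and TTA members, the 14 remaining with A had 17.3 on CEBPB(V285A) 5mC, 9.89 on CREB1 5hmC and 8.37 on CEBPB(V285A) 5hmC. On CEBPB(V285A) 5mC, members starting with C had a median of 16.0, against 8.90 with T, 5.36 with A and 5.28 with G. The 4 members with C first and A directly before TGCAA had a median of 72.2 there and 23.4 on CREB1 5hmC.

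Members with more cytosines in the free bases, which carry more modified bases, were not higher throughout. The median on CEBPB(V285A) 5mC was 7.88 for the 26 members with no further C besides that of GCAA, 8.25 for the 27 with 1 and 5.32 for the 9 with 2. On CREB1 5hmC the medians fell in the same order, 4.34, 3.33 and 1.78. CCCTGCAA, with C at all 3 free bases and outside these medians, had means of 15.5 on CEBPB(V285A) 5mC and 2.09 on CREB1 5hmC. The TGA and TTA members have no C besides that of the half-site, so the modified base in them was the C of GCAA on the modified strand.

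The base after TGCAA was read from 8-mers with the same 5 bases moved by 1 position. For CEBPB(V285A) on 5mC the median was 16.0 for the 16 8-mers in which C followed, 15.4 for T, 4.29 for G and 3.31 for A. With A before TGCAA the medians were 72.6 with C after it, 78.4 with T, 17.9 with G and 6.52 with A, over 4 8-mers each. On CREB1 5hmC those 4 medians were 25.7, 31.2, 5.42 and 4.51. A pyrimidine after TGCAA thus went with the higher values in both groups. The brightest and middle probes of the composite had a T there and the dimmest an A. Those probes were picked by brightness and also differ in the position of the composite and the rest of their flanks. They therefore do not bear on the base that follows.

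The first question of the design was how the modified cytosines changed binding. The CEBPB(V285A) groups shared no array number, as given in the deposited tables' names, with each other, so number and cytosine form are confounded in them. For CEBPB(V285A), 54 of 63 modified-strand members were higher on 5mC than on C and none was lower, where 3.01% of all 8-mers were called higher and 3.49% lower. The median difference was 7.21 Z-score units over the members and 0.00268 over all 8-mers, and all 63 differences were positive, from 0.150 to 159.6. TGATGCAA rose by 159.6 (SE 8.68, adjusted p = 1.9e-08), TTATGCAA by 156 (SE 20.6, adjusted p = 0.00016), CTATGCAA by 102 (SE 10.3), CGATGCAA by 92.9 (SE 4.36) and CTGTGCAA by 47.6 (SE 1.20, adjusted p = 1.1e-11). All 16 members with A before TGCAA were called, 13 of 16 with C, 12 of 15 with G and 13 of 16 with T. The 9 members not called included ACGTGCAA (difference 0.507), GGGTGCAA (1.13) and CACTGCAA (0.150). Leaving out 1 array gave 46 to 56 calls. After an asinh transform of the Z-scores 34 were called, and TGATGCAA and TTATGCAA were not among the calls, while the differences stayed positive.

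The other-strand members moved less between these groups: 13 of 63 rose and 2 fell. TTGCAATA rose by 19.1 (SE 2.13) from 1.72 and 2.08 to 16.9 and 25.2, and TTGCAACA rose by 15.6 (SE 0.882) from 2.23 and 1.89 to 18.0 and 17.4. Of the 13, 11 were among the 16 members that start with TTGCAA. The reverse complements of the TTA and TGA members were the 2 that fell. TTGCATAA had 58.9 and 55.3 on C and 27.7 and 34.0 on 5mC, a fall of 26.2 (SE 4.25, adjusted p = 0.00098), and TTGCATCA had 17.0 and 14.6 on C and 5.20 and 5.52 on 5mC, a fall of 10.5 (SE 0.795, adjusted p = 5.9e-07). For these 2 sites the half-site rose on the modified strand and fell on the other. The partner of the CTG member, TTGCACAG, was higher on 5mC, with means of 5.54 and 0.801. Neither fall was called after the asinh transform, nor that of TTGCATAA after quantile normalization, which left 8 rises and 1 fall.

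On 5hmC, 19 of 63 modified-strand members of CEBPB(V285A) were higher than on C and 1 was lower, where 2.36% and 4.9% of all 8-mers were called. TTATGCAA rose by 147 (SE 20.6, adjusted p = 0.00040), TGATGCAA by 52.2 (SE 8.68, adjusted p = 0.0016), TCATGCAA by 9.27 (SE 1.09) and TTTTGCAA by 8.20 (SE 1.39). ACGTGCAA was the member that fell, by 6.98 (SE 1.18, adjusted p = 0.0018). None of these 5 calls held after the asinh transform, which left 11 members called. With the array number as a random block, which allows arrays of a number to deviate together, 8 rose and 1 fell, and 10 members in all were called without either CEBPB(V285A) C array. Among the other-strand members 4 rose, TTGCAACA the most at 5.19 (SE 0.882), and 2 fell. TTGCATAA fell by 19.8 (SE 4.25, not called without CEBPB(V285A) C replicate 1 or 5hmC replicate 1) and TTGCATCA fell by 11.6 (SE 0.795). The count of 6 became 2 without CEBPB(V285A) C replicate 1 or 5hmC replicate 1, and 3 without CEBPB(V285A) C replicate 2 or any of the CREB1 C and 5hmC arrays. It was 2 after the asinh transform, after quantile normalization or with the random block, and 11 with Z-scores recomputed from probe intensities. Under quantile normalization the difference of TTGCATAA was positive, 10.0, and not called.

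Set directly against each other, 42 of 63 modified-strand members of CEBPB(V285A) were lower on 5hmC than on 5mC and none was higher, where 3.73% of all 8-mers were lower and 1.98% higher. All 63 differences were negative, with a median of -5.18. CTATGCAA fell by 88.2 (SE 10.3), CGATGCAA by 74.0 (SE 4.36), CTGTGCAA by 42.4 (SE 1.20) and CAATGCAA by 42.1 (SE 1.52), while TGATGCAA fell by 107 (SE 8.68, adjusted p = 2.0e-06). Of the other-strand members 10 were lower, 9 of them starting with TTGCAA. The size of this set depended on the scale: 10 modified-strand members were lower after the asinh transform, and 22 were lower and 1 higher after quantile normalization. The 10 other-strand calls became 1 and 3.

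CREB1 C and CREB1 5hmC arrays carried different array numbers, so a difference between numbers and one between cytosine forms cannot be told apart here. For CREB1, 31 of 63 modified-strand members were higher on 5hmC than on C and none was lower, where 4.31% of all 8-mers were higher and 5.27% lower. The median difference was 3.15 and 57 of 63 were positive. TGATGCAA rose by 153 (SE 8.68, adjusted p = 1.5e-06), CCATGCAA by 27.8 (SE 1.65, adjusted p = 2.0e-06), GCATGCAA by 11.9 (SE 1.80) and CGATGCAA by 18.5 (SE 4.36, adjusted p = 0.019). The call for CGATGCAA was lost without any 1 of the 4 CREB1 C and 5hmC arrays. CTATGCAA, from -0.405 and -0.419 to 27.7 and 27.6, was not called (difference 28.0, SE 10.3, adjusted p = 0.10), although its arrays did not overlap. A stood before TGCAA in 11 of the 31. With the random block the count was 12. It also depended on single arrays and was 17 and 16 without CREB1 C replicate 1 and 2, and 19 and 12 without CREB1 5hmC replicate 1 and 2.

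Of the other-strand members 12 rose on CREB1 5hmC and none fell, 9 of them starting with TTGCAA. TTGCAATA went from -0.210 and 0.484 to 22.1 and 26.5, a rise of 24.2 (SE 2.13, adjusted p = 2.5e-05), and TTGCAATG rose by 9.96 (SE 1.23). TTGCATCA, the reverse complement of the composite, had 2.44 and 2.58 on C and 1.26 and 1.52 on 5hmC, a difference of -1.12 (SE 0.795, adjusted p = 0.41). The count of 12 was 5 with the random block, and 5 or 6 without any 1 of the 4 CREB1 C and 5hmC arrays. On the single CREB1 5mC array, all 63 modified-strand members were above their mean on C, by a median of 2.86, with TGATGCAA highest at 42.4 and TTATGCAA and CTATGCAA at 18.3 and 17.6.

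CREB1(A297V) showed no called member in either orientation between any pair of its cytosine forms by limma, where 0.0336% of all 8-mers were called between 5mC and C, 0.343% between 5hmC and C, and 0.8% between 5hmC and 5mC. At an unadjusted p under 0.05 the counts of modified-strand members were 1, 8 and 5 in that order, and of other-strand members 1, 5 and 2. Among all 65535 8-mers, 6969, 10381 and 10798 reached that unadjusted p by limma, so these member counts show no excess. The asinh transform called 1 modified-strand member between 5hmC and C, and so did leaving out CREB1(A297V) 5hmC replicate 1, which also called 1 other-strand member. On the arrays of a shared array number the counts were 0 too. The composite differed by 0.600 (SE 8.68) between 5mC and C, so a change of several Z-score units could not be detected for it.

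Proteins were compared on the same form of cytosine, first CEBPB(V285A) with CREB1. On C, 1 modified-strand member was higher for CEBPB(V285A), and none was lower, where 0.888% and 0.0381% of all 8-mers were. It was TGATGCAA, higher by 41.9 (SE 8.68, adjusted p = 0.035), a call lost when any of the CREB1 C, CEBPB(V285A) C, CREB1(A297V) C or CEBPB(V285A) 5mC arrays or CREB1(A297V) 5hmC replicate 3 was left out. It was also lost after quantile normalization, with recomputed Z-scores and with the random block. The count was 2 without either CEBPB(V285A) 5hmC array and after the asinh transform. TTATGCAA, with a difference of 29.7 (SE 20.6, adjusted p = 0.89), was not called, although its arrays did not overlap. Its SDs on C were 2.325 for CEBPB(V285A) and 0.4313 for CREB1, while the SE rests on a spread shared by all groups. The other-strand members TTGCATAA and TTGCATCA were higher by 55.8 (SE 4.25, adjusted p = 1.8e-05) and 13.3 (SE 0.795, adjusted p = 1.8e-06). On CREB1 C these had 1.72 and 0.865, and 2.44 and 2.58. After the asinh transform or quantile normalization 1 other-strand member was called, and with recomputed Z-scores 4 were. CEBPB(V285A) C and CREB1 C carried different array numbers, so number and protein cannot be told apart on C.

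On 5hmC, 4 modified-strand members were higher for CEBPB(V285A) than for CREB1 and 8 were lower, where 1.85% and 2.14% of all 8-mers were. TTATGCAA was higher by 149 (SE 20.6, adjusted p = 0.00092), while the difference was -59.0 for TGATGCAA (SE 8.68, adjusted p = 0.0014) and -19.3 for CCATGCAA (SE 1.65). The TGA and TTA members, which differ in the second free base, lay in opposite order for the 2 proteins on 5hmC: 156 ± 20.6 against 27.6 ± 10.1 on CREB1 and 97.0 ± 18.3 against 177 ± 72.4 on CEBPB(V285A) (mean ± SD, n = 2). With the half-site on the modified strand, every CEBPB(V285A) array on C and 5mC had TGATGCAA above TTATGCAA, the order seen on CREB1. Their reverse complements lay the other way on CEBPB(V285A), with TTGCATAA above TTGCATCA on each form of cytosine. The means were 57.1 against 15.8 on C, 30.9 against 5.36 on 5mC and 37.35 against 4.19 on 5hmC. Among the other-strand members 3 were higher and 2 lower, TTGCATAA by 34.6 (SE 4.25) and TTGCAATA by -16.9 (SE 2.13) at the ends. Leaving out either CREB1 5hmC array left 6 calls of 12 and 3 of 5, and after the asinh transform no modified-strand and 2 other-strand members were called. With the random block the counts were 5 and 2, and quantile normalization left 3 other-strand calls. CEBPB(V285A) 5hmC and CREB1 5hmC carried different array numbers in the deposited tables' names, so number and protein cannot be told apart here.

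CEBPB and CREB1 on 5hmC shared an array number. The highest Z-score of any 8-mer was 50.1 and 69.0 on the CEBPB 5hmC arrays, against 141 and 171 on the CREB1 5hmC arrays. How far this range set the differences was not tested. Of the modified-strand members 18 were lower for CEBPB and 1 was higher, where 2.42% and 0.917% of all 8-mers were. The difference was -144 for TGATGCAA (SE 8.68, adjusted p = 1.3e-06), -25.9 for CCATGCAA (SE 1.65) and -12.5 for GCATGCAA (SE 1.80), while GATTGCAA was higher by 3.99 (SE 0.756, not called without CEBPB or CREB1 5hmC replicate 2). Fitted on the arrays of the shared number alone, 12 were lower and none higher. Without CEBPB 5hmC replicate 2 or CREB1 5hmC replicate 2, 7 were called. Of the other-strand members, 3 were higher and 3 lower, with differences of 6.55 (SE 0.887) for TTGCAAAA and -20.4 (SE 2.13) for TTGCAATA. Within the shared number 1 was higher and 2 lower, and without CEBPB replicate 2 or either CREB1 5hmC array 3 were called. After quantile normalization or with recomputed Z-scores 10 were.

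CEBPB(V285A) was next set against CEBPB. The highest Z-score of any 8-mer was 50.1 and 69.0 on the CEBPB 5hmC arrays, against 228 and 125 on the CEBPB(V285A) 5hmC arrays. How far this range set the differences was not tested. On 5hmC the mutant exceeded CEBPB in 11 modified-strand members and was lower in none, where 1.92% of all 8-mers were higher and 0.687% lower. TTATGCAA was higher by 167 (SE 20.6, adjusted p = 0.00058), TGATGCAA by 84.5 (SE 8.68, adjusted p = 0.00013), TCATGCAA by 11.1 (SE 1.09) and ATATGCAA by 7.57 (SE 0.856). The count was 6 without CEBPB 5hmC replicate 2 or with the random block, 22 with recomputed Z-scores and 17 without either CEBPB(V285A) 5mC array. Of the other-strand members 1 was higher, TTGCATAA by 30.6 (SE 4.25), and 2 were lower, TTGCAAAA by -5.91 (SE 0.887) being the larger, and 5 were called without CREB1(A297V) 5hmC replicate 4, 0 after the asinh transform and 7 with recomputed Z-scores. TTGCAAAA was the highest other-strand member of CEBPB, 7.82 and 9.80. These groups had different array numbers as well, so number and protein cannot be told apart here.

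CREB1(A297V) was lower than CREB1 on 5hmC in 35 modified-strand members and higher in none, where 6.22% of all 8-mers were lower and 2.54% higher. The difference was -153 for TGATGCAA (SE 7.52, adjusted p = 8.9e-08), -28.0 for CCATGCAA (SE 1.43) and -12.3 for GCATGCAA (SE 1.55). The count was 23 and 13 without CREB1 5hmC replicate 1 and 2, and that of the other-strand members, 9 lower, was 4 without CREB1 5hmC replicate 2. With the random block the counts were 18 and 5. On 5hmC these groups shared no array number, so number and protein cannot be told apart there. The highest Z-score of any 8-mer was 15.7 to 31.1 on the CREB1(A297V) 5hmC arrays, against 141 and 171 on the CREB1 5hmC arrays. How far this range set the differences was not tested. On C no member of either orientation was called by limma, where 1.53% of all 8-mers were. At an unadjusted p under 0.05 there were 3 modified-strand and 1 other-strand member, and 6990 of all 65535 8-mers. A single modified-strand member was called without CREB1 C replicate 1, CREB1(A297V) 5hmC replicate 2 or 3, with the random block or without the mean-variance trend.

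The effect of 5hmC itself was compared between proteins as the difference of the differences. For CEBPB(V285A) against CREB1 the effect was lower in 4 modified-strand members, where 1.63% of all 8-mers were lower and 0.354% higher, and in 3 other-strand members. The difference between the effects was -101 for TGATGCAA (SE 12.3, adjusted p = 0.00070) and -19.7 for CCATGCAA (SE 2.34, adjusted p = 0.00060), and neither call held after the asinh transform, which left no call in either orientation. With the random block 2 and 1 were called, and the 4 became 2 after quantile normalization and 7 without the mean-variance trend. For CREB1(A297V) against CREB1 it was lower in 11 modified-strand members, where 0.52% of all 8-mers were and 0.191% were higher, and in 4 other-strand members. The 4 became 2 without any of the CREB1 C or CEBPB(V285A) C arrays or CREB1 5hmC replicate 2. The 11 became 3 to 7 without any of the CREB1 C, CREB1(A297V) C or CREB1 5hmC arrays or CREB1(A297V) 5hmC replicate 2 or 3, and 17 without either CEBPB(V285A) 5mC array. After the asinh transform 1 member of each orientation was called, and the 11 became 4 with the random block and 17 after quantile normalization. The CREB1 C and 5hmC arrays carried different array numbers, so number and cytosine form cannot be told apart in either comparison.

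Since the modified base was on a single strand, each member was also compared with its own reverse complement, which is the same double-stranded site turned round. On CEBPB(V285A) 5mC, 47 of 63 members were higher with the half-site on the modified strand and 6 were lower, where 18.2% of all pairs differed in either direction. The median difference was 5.31. TTATGCAA exceeded TTGCATAA by 155 (SE 14.5), CTATGCAA its partner by 103 (SE 6.14), CGATGCAA by 92.2 (SE 2.10), CAATGCAA by 47.9 (SE 0.865) and CTGTGCAA by 42.2 (SE 0.761, adjusted p = 4.0e-19). The members lower than their partners included TATTGCAA (-13.7), AATTGCAA (-8.69), AGTTGCAA (-6.13) and TCTTGCAA (-5.16), whose partners start with TTGCAA.

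On C fewer members differed from their partners: 6 were higher than their partners for CREB1, where 19.7% of all pairs differed, and 7 for CEBPB(V285A), where 10.8% did. Both counts fell to 1 without either array of the group, and the asinh transform called 17 for CREB1 and quantile normalization 4 for CEBPB(V285A). Among the called members ACGTGCAA led on C, with a difference of 4.98 (SE 0.696) on CREB1 and 6.23 (SE 0.696) on CEBPB(V285A). Larger differences of either sign on CEBPB(V285A) C were not called. TGATGCAA stood above TTGCATCA there and TTATGCAA stood below TTGCATAA, with no overlap between the arrays in either pair. From C to 5mC the strand difference of CEBPB(V285A) rose in 39 members and fell in 4, where 5.18% of all pairs changed in either direction. These 43 calls became 15 after the asinh transform and 23 after quantile normalization. From C to 5hmC that of CREB1 rose in 20 and fell in 6, where 15.5% did; the 26 calls were 12, 15 and 10 without CREB1 C replicate 1, CREB1 C replicate 2 and CREB1 5hmC replicate 2.

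On 5hmC, CREB1 had 30 members higher than their partners and 5 lower, where 12.4% of pairs differed, with CCATGCAA higher by 26.8 (SE 1.12), CGATGCAA by 18.9 (SE 2.10) and a difference of -22.3 for TATTGCAA (SE 1.18). Without CREB1 5hmC replicate 1 or 2 the calls were 22 or 13. CEBPB(V285A) had 22 higher and 1 lower, where 10.4% differed, with TTATGCAA higher by 139 (SE 14.5), and 13 calls without its 5hmC replicate 1. CEBPB had 1 higher and 4 lower, where 9.36% differed, and 2 and 0 calls without its replicate 1 and 2, against 3 after the asinh transform, 11 after quantile normalization and 8 with recomputed Z-scores. TGATGCAA exceeded TTGCATCA by 199 on CEBPB(V285A) 5mC, 155 on CREB1 5hmC, 92.8 on CEBPB(V285A) 5hmC and 29.0 on CEBPB(V285A) C, and its arrays did not overlap with those of its partner in any of these groups. None of the 4 was called (adjusted p = 0.28, 0.45, 0.69 and 0.91), since its SE, moderated by the mean-variance trend, was 122. All 4 were called without that trend, an alternative chosen after the data were seen.

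The base before GCAA was then varied with the 3 free bases kept, which sets TpG beside CpG and purines. Over the 63 contexts the median on CEBPB(V285A) 5mC was 7.83 with T, 13.4 with C, 2.07 with A and 2.13 with G. On CREB1 5mC (1 array) the order was the same, 3.14, 6.01, 1.25 and 1.15. On 5hmC T came first: 3.16 with T, 1.70 with C, 0.337 with A and 0.276 with G for CREB1, 2.62, 1.77, 0.348 and 0.321 for CEBPB(V285A), and 1.45, 0.429, 0.212 and -0.286 for CEBPB. Part of this order was array-wide. Over all 16384 contexts the median of T minus C on 5hmC was 0.364 for CREB1, 0.339 for CEBPB(V285A) and 0.463 for CEBPB. On C the medians with T and C lay closer together, 0.484 and 0.575 for CREB1, against 0.968 and 1.32 for CEBPB(V285A). Contexts with C include sequences near the palindromes; over the 54 contexts without these, T and C had 7.79 and 11.4 on CEBPB(V285A) 5mC and 2.91 and 1.47 on CREB1 5hmC.

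On CEBPB(V285A) 5mC, T was below C in 44 of 63 contexts and above it in 4, where 5.34% and 7.55% of all 8-base contexts with T or C at this position were. The difference to the same context with C was -85.7 for CTATGCAA (SE 5.35), -71.0 for CAATGCAA (SE 1.03) and -67.7 for TTATGCAA (SE 4.24). The C partner of TTATGCAA, TTACGCAA, is within 1 mismatch of the C/EBP palindrome, so in every group this pair also differs in nearness to a palindrome. The counts over the 63 contexts include such pairs. The composite TGATGCAA, at 204, differed from TGACGCAA, at 221, by -16.9 (SE 7.01, adjusted p = 0.13). CCCTGCAA was above its C partner by 13.8 (SE 1.15) and GATTGCAA by 4.57 (SE 0.540). After the asinh transform the calls were 5 lower and 1 higher, with CCCTGCAA still called and CTATGCAA, CAATGCAA, TTATGCAA and GATTGCAA no longer, so the count rested on the scale of the Z-scores.

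On CREB1 5hmC the direction turned: T was above C in 21 contexts and below in 3, where 6.95% and 1.8% of all contexts were, and the median difference was 1.92 against 0.364 over all contexts. TGATGCAA, at 156, exceeded TGACGCAA, at 76.4, by 79.6 (SE 7.01, adjusted p = 1.4e-06), and ATATGCAA differed from its partner by -12.1 (SE 1.43). The ceiling reached by composite probes on these arrays limits the first value. Neither was called after the asinh transform, which left 9 calls, and 6 and 7 were left without CREB1 5hmC replicate 1 and 2. TTATGCAA lay further below its C partner on CREB1 5hmC than ATATGCAA did. With recomputed Z-scores that difference of TTATGCAA turned positive, and the one of CCATGCAA turned from positive to negative. On CEBPB(V285A) 5hmC, T was above C in 9 contexts and below in none, where 10.5% and 2.15% of all contexts were; TGATGCAA, at 97.0, exceeded TGACGCAA, at 51.4, by 45.6 (SE 7.01), and TTATGCAA its partner by 35.2 (SE 4.24), neither called after the asinh transform. The count of 9 was 18 without either CEBPB(V285A) 5mC array, 22 with recomputed Z-scores and 4 after the asinh transform. For CEBPB on 5hmC 10 were above and 1 below, where 11.8% and 1.99% were, and 3 and 1 were called without its replicate 1 and 2. After quantile normalization 18 were called for CEBPB.

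Tested directly, T minus C on CEBPB(V285A) was higher on 5hmC than on 5mC in 43 of 63 contexts and lower in 1, where 3.76% and 0.818% of all contexts were, with a median change of 7.06. TTATGCAA changed by 103 (SE 5.99), CTATGCAA by 82.2 (SE 7.56), CAATGCAA by 69.1 (SE 1.46), CGATGCAA by 66.8 (SE 7.69) and TGATGCAA by 62.5 (SE 9.91). After the asinh transform 1 was called, none of these 5, and after quantile normalization 24. On C, T was above C in 3 contexts and below in 1 for CREB1, where 4.77% and 4.44% of all contexts were, and above in 2 and below in 4 for CEBPB(V285A), where 9.31% and 5.73% were. The largest of these was TTATGCAA on CEBPB(V285A) C, with a difference of -88.4 (SE 4.24) to TTACGCAA, at 118. As TTACGCAA is within 1 mismatch of the C/EBP palindrome, TpG against CpG cannot be told apart there from nearness to a palindrome. The 4 calls of CREB1 became 1 when either of its C arrays was left out and 7 without either CEBPB(V285A) 5mC array. The asinh transform called 9 for CREB1, and recomputed Z-scores gave 10 calls for CEBPB(V285A). The 6 of CEBPB(V285A) became 3 when its C replicate 1 was left out and 11 without either of its 5mC arrays.

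Against purines, T was higher in 50 contexts and lower in 1 on CEBPB(V285A) 5mC, where 7.98% and 11.8% of all contexts were, in 42 and 0 on CREB1 5hmC (10.7% and 6.42%), in 34 and 0 on CEBPB(V285A) 5hmC (10.5% and 6.96%) and in 15 and 0 on CEBPB 5hmC (7.85% and 1.79%). On C 2 were higher and 0 lower for CREB1 (4.08% and 9.35%), and 7 and 0 for CEBPB(V285A) (9.12% and 11.0%). CCATGCAA exceeded the purine mean by 25.9 (SE 0.905) on CREB1 5hmC and TTATGCAA by 166 (SE 20.4) on CEBPB(V285A) 5hmC. TGATGCAA exceeded it by 200.2, 150.4 and 94.7 on CEBPB(V285A) 5mC, CREB1 5hmC and CEBPB(V285A) 5hmC, again with an SE from the trend (83.2) that left it uncalled (adjusted p = 0.10, 0.23 and 0.49), and called without the trend. The asinh transform called 29 for CEBPB 5hmC, 6 for CREB1 C and 18 for CEBPB(V285A) C, and quantile normalization 24 for CEBPB 5hmC. The CREB1 5hmC count was 22 without replicate 2, the CEBPB count 4 and 1 without its replicate 1 and 2, the CEBPB(V285A) C count 2 without replicate 1, and the CREB1 C count 1, 0 and 4 without CREB1 C replicate 1, replicate 2 and CREB1(A297V) 5hmC replicate 4.

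With the half-site on the other strand, where the base opposite the varied one was on the modified strand, T was above C in 14 contexts and below in 14 on CEBPB(V285A) 5mC, where 11.5% and 4.1% of all contexts were. TTGCAATA exceeded its partner by 20.4 (SE 1.40) and TTGCAACA by 15.2 (SE 0.749), while the difference was -18.0 for TTGCACAG (SE 0.919) and -12.7 for TTGCATCG (SE 0.674). On CREB1 5hmC 10 were above and none below (5.95% and 3.43%), with TTGCAATA above by 23.7 (SE 1.40) and 16 calls with recomputed Z-scores, and on CEBPB(V285A) 5hmC 15 were above and 1 below (9.94% and 2.31%), or 10 calls without its replicate 1. Against purines, 32 other-strand members were higher on CEBPB(V285A) 5mC (15.4% of all contexts), 11 on CREB1 5hmC (7.61%) and 20 on CEBPB(V285A) 5hmC (10.8%), with none lower (6.89%, 5.98% and 5.85%); TTGCATAA led on CEBPB(V285A) 5mC and 5hmC, by 29.1 (SE 2.35) and 34.7 (SE 2.35). The last 2 counts were 6 without CREB1 5hmC replicate 2 and 11 without CEBPB(V285A) 5hmC replicate 1.

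The other-strand members that start with TTGCAA stood apart from the rest of that orientation. On CEBPB(V285A) 5mC these 16 had a median of 8.52, against 0.749 for the 47 other members of that orientation, and on CREB1 5hmC 3.71 against 0.486. On CEBPB 5hmC the medians were 2.79 and 1.43. A TTGCAA member holds TGCAA on the modified strand as well, at a shifted position, so its value cannot be assigned to either strand.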

How the data were processed

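Binding of 4 bZIP constructs was measured on 21 arrays in 10 groups, taken from the sample labels. The deposited 8-mer tables hold 1 score per 8-mer and array, which the name of the table calls a Z-score; how the authors calculated it, and the software, are not given in the sources used here. The deposited scanner tables hold the authors' median spot intensity and background per probe, per the file headers. These intensities served to show probes, to find saturated spots (65500 or more) and to recompute the scores as an alternative.

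The strand reading is an assumption: an 8-mer name was taken as the printed sequence read backwards, so that its complement is the synthesised, modified strand. If it were the other way, the labels of the orientations would swap.

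The Z-scores were fitted without further scaling with limma 3.58.1 in R 4.3.3, with 1 mean per group over all 21 arrays, a spread shared by the groups and moderated with a mean-variance trend, on 11 residual degrees of freedom. P-values were adjusted over all features of a table by the Benjamini-Hochberg method and called under 0.05, two-sided. The same fit was run on differences within an array: each 8-mer minus its reverse complement, and T minus C or minus the mean of A and G at the base before GCAA. The fit was tested on simulated data, but no result of that test is given here. The members and lists were chosen with earlier results of these data known. Named were the composite member and its reverse complement, the 3 highest members and the lowest by mean per group and orientation, and per comparison up to 5 called members with the largest rise and fall whose arrays did not overlap; the 3 probes and the members compared beside them were chosen after their values were seen. Contrasts resting on the single CREB1 5mC array were not counted. The array number in the deposited tables' names largely follows the groups, so number and group cannot be told apart where a comparison shares no number. Alternatives were an asinh transform, quantile normalization, recomputed Z-scores, a replicate block, the array number as a random block or shared, leaving out each array, and no mean-variance trend (chosen after seeing the data).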

Additional observations from a re-analysis of the deposited data

Results flagged for a closer look

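The effect of 5hmC against C differed between proteins by limma's test of the difference of the differences, over all 8-mers. Between CEBPB(V285A) and CREB1 it was lower for CEBPB(V285A) in 4 modified-strand and 3 other-strand members, where 1.63% of all 8-mers were lower. The counts were 0 and 0 after the asinh transform, and 2 and 1 with the array number as a random block. The differences of the modified-strand members were -100.9 Z-score units for TGATGCAA, -19.72 for CCATGCAA, -6.843 for TCGTGCAA and -5.132 for GCTTGCAA. Those of the other-strand members were -18.7 for TTGCAATA, -10.52 for TTGCATCA and -7.318 for TTGCAATG. TTGCATCA fell on 5hmC for CEBPB(V285A), by 11.6, and differed by -1.12 for CREB1, where no change was called.

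Between CREB1(A297V) and CREB1 the effect was lower for the mutant in 11 modified-strand and 4 other-strand members, where 0.52% of all 8-mers were lower. The counts were 1 and 1 after the asinh transform, and the 11 became 4 with the random block. The modified-strand members with the largest differences were TGATGCAA at -153.0, CCATGCAA at -26.96, GCATGCAA at -12.42, ACATGCAA at -11.54 and CTGTGCAA at -9.16. The other-strand members were TTGCAATA at -23.51, TTGCAATG at -10.88, TTGCAACA at -7.589 and TTGCAATC at -7.005. Both comparisons use the same CREB1 arrays, so they are not independent of each other. The CREB1 C and 5hmC arrays carried different array numbers, so number and cytosine form cannot be told apart in either. The highest Z-scores of the CREB1(A297V) 5hmC arrays were 15.7 to 31.1.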

How the results depend on the processing

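Counts of called members that moved by more than 1.5 times are given with the count of the reported fit in parentheses, and the cause was not tested. After the asinh transform the modified-strand counts were CEBPB(V285A): 5mC minus C 34 (54), CEBPB(V285A): 5hmC minus C 11 (20), CEBPB(V285A): 5hmC minus 5mC 10 (42), CREB1(A297V): 5hmC minus C 1 (0), CEBPB(V285A) minus CREB1 on C 2 (1) and CEBPB(V285A) minus CREB1 on 5hmC 0 (12). Further modified-strand counts were effect of 5hmC: CEBPB(V285A) minus CREB1 0 (4), effect of 5hmC: CREB1(A297V) minus CREB1 1 (11), strand difference, CREB1 C 17 (6), strand difference, CEBPB 5hmC 3 (5), strand difference, CEBPB(V285A): 5mC minus C 15 (43) and T minus C, CREB1 C 9 (4). Further modified-strand counts were T minus C, CEBPB(V285A) 5mC 6 (48), T minus C, CREB1 5hmC 9 (24), T minus C, CEBPB(V285A) 5hmC 4 (9), T minus C, CEBPB(V285A): 5hmC minus 5mC 1 (44), T minus purine, CREB1 C 6 (2) and T minus purine, CEBPB(V285A) C 18 (7). Further modified-strand counts were T minus purine, CEBPB 5hmC 29 (15). The other-strand counts were CEBPB(V285A): 5hmC minus C 2 (6), CEBPB(V285A): 5hmC minus 5mC 1 (10), CEBPB(V285A) minus CREB1 on C 1 (2), CEBPB(V285A) minus CREB1 on 5hmC 2 (5), CEBPB(V285A) minus CEBPB on 5hmC 0 (3) and effect of 5hmC: CEBPB(V285A) minus CREB1 0 (3). Further other-strand counts were effect of 5hmC: CREB1(A297V) minus CREB1 1 (4). After quantile normalization the modified-strand counts were CEBPB(V285A): 5hmC minus 5mC 23 (42), CEBPB(V285A) minus CREB1 on C 0 (1), effect of 5hmC: CEBPB(V285A) minus CREB1 2 (4), effect of 5hmC: CREB1(A297V) minus CREB1 17 (11), strand difference, CEBPB(V285A) C 4 (7) and strand difference, CEBPB 5hmC 11 (5). Further modified-strand counts were strand difference, CEBPB(V285A): 5mC minus C 23 (43), T minus C, CEBPB 5hmC 18 (11), T minus C, CEBPB(V285A): 5hmC minus 5mC 24 (44) and T minus purine, CEBPB 5hmC 24 (15). The other-strand counts were CEBPB(V285A): 5mC minus C 9 (15), CEBPB(V285A): 5hmC minus C 2 (6), CEBPB(V285A): 5hmC minus 5mC 3 (10), CEBPB(V285A) minus CREB1 on C 1 (2), CEBPB(V285A) minus CREB1 on 5hmC 3 (5) and CEBPB minus CREB1 on 5hmC 10 (6). With Z-scores recomputed from probe intensities the modified-strand counts were CEBPB(V285A) minus CREB1 on C 0 (1), CEBPB(V285A) minus CEBPB on 5hmC 22 (11), strand difference, CEBPB 5hmC 8 (5), T minus C, CEBPB(V285A) C 10 (6) and T minus C, CEBPB(V285A) 5hmC 22 (9). The other-strand counts were CEBPB(V285A): 5hmC minus C 11 (6), CEBPB(V285A) minus CREB1 on C 4 (2), CEBPB(V285A) minus CEBPB on 5hmC 7 (3), CEBPB minus CREB1 on 5hmC 10 (6) and T minus C, CREB1 5hmC 16 (10). With the array number as a random block the modified-strand counts were CREB1: 5hmC minus C 12 (31), CEBPB(V285A): 5hmC minus C 9 (20), CEBPB(V285A) minus CREB1 on C 0 (1), CEBPB(V285A) minus CREB1 on 5hmC 5 (12), CREB1(A297V) minus CREB1 on C 1 (0) and CREB1(A297V) minus CREB1 on 5hmC 18 (35). Further modified-strand counts were CEBPB(V285A) minus CEBPB on 5hmC 6 (11), effect of 5hmC: CEBPB(V285A) minus CREB1 2 (4) and effect of 5hmC: CREB1(A297V) minus CREB1 4 (11). The other-strand counts were CREB1: 5hmC minus C 5 (12), CEBPB(V285A): 5hmC minus C 2 (6), CEBPB(V285A) minus CREB1 on 5hmC 2 (5), CREB1(A297V) minus CREB1 on 5hmC 5 (9) and effect of 5hmC: CEBPB(V285A) minus CREB1 1 (3). On the arrays of the shared array number the modified-strand counts were CEBPB minus CREB1 on 5hmC 12 (19). The other-strand counts were CEBPB minus CREB1 on 5hmC 3 (6). Without the mean-variance trend, chosen after seeing the data, the modified-strand counts were CREB1(A297V) minus CREB1 on C 1 (0) and effect of 5hmC: CEBPB(V285A) minus CREB1 7 (4).

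Replicate numbers did not pair the arrays: over 28 pairs of groups the correlation of same-numbered arrays' deviations ran from -0.381 to 0.190, above 0.1 in 4. With the replicate block the modified-strand counts were CEBPB(V285A) minus CREB1 on C 0 (1), strand difference, CREB1 C 11 (6), strand difference, CEBPB 5hmC 8 (5), T minus C, CEBPB(V285A) 5hmC 15 (9) and T minus purine, CREB1 C 5 (2). The other-strand counts were CEBPB(V285A): 5hmC minus C 10 (6), CEBPB(V285A) minus CEBPB on 5hmC 5 (3) and CEBPB minus CREB1 on 5hmC 12 (6). The replicate block ended the call of 8 of the 311 values of named members.

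Leaving out each array in turn, the modified-strand counts ranged from 12 to 38 for CREB1: 5hmC minus C, 10 to 28 for CEBPB(V285A): 5hmC minus C, 0 to 1 for CREB1(A297V): 5hmC minus C, 0 to 2 for CEBPB(V285A) minus CREB1 on C, 6 to 15 for CEBPB(V285A) minus CREB1 on 5hmC and 0 to 1 for CREB1(A297V) minus CREB1 on C. Ranges went on with 13 to 42 for CREB1(A297V) minus CREB1 on 5hmC, 6 to 17 for CEBPB(V285A) minus CEBPB on 5hmC, 7 to 24 for CEBPB minus CREB1 on 5hmC, 2 to 6 for effect of 5hmC: CEBPB(V285A) minus CREB1, 3 to 17 for effect of 5hmC: CREB1(A297V) minus CREB1 and 1 to 9 for strand difference, CREB1 C. Ranges went on with 1 to 8 for strand difference, CEBPB(V285A) C, 0 to 7 for strand difference, CEBPB 5hmC, 13 to 38 for strand difference, CREB1 5hmC, 13 to 27 for strand difference, CEBPB(V285A) 5hmC, 10 to 30 for strand difference, CREB1: 5hmC minus C and 1 to 7 for T minus C, CREB1 C. Ranges went on with 3 to 11 for T minus C, CEBPB(V285A) C, 1 to 13 for T minus C, CEBPB 5hmC, 6 to 28 for T minus C, CREB1 5hmC, 6 to 18 for T minus C, CEBPB(V285A) 5hmC, 0 to 4 for T minus purine, CREB1 C and 2 to 10 for T minus purine, CEBPB(V285A) C. Ranges went on with 1 to 20 for T minus purine, CEBPB 5hmC and 22 to 44 for T minus purine, CREB1 5hmC. Leaving out each array in turn, the other-strand counts ranged from 5 to 15 for CREB1: 5hmC minus C, 2 to 8 for CEBPB(V285A): 5hmC minus C, 0 to 1 for CREB1(A297V): 5hmC minus C, 3 to 5 for CEBPB(V285A) minus CREB1 on 5hmC, 4 to 12 for CREB1(A297V) minus CREB1 on 5hmC and 2 to 5 for CEBPB(V285A) minus CEBPB on 5hmC. Ranges went on with 3 to 8 for CEBPB minus CREB1 on 5hmC, 10 to 16 for T minus C, CEBPB(V285A) 5hmC, 6 to 14 for T minus purine, CREB1 5hmC and 11 to 24 for T minus purine, CEBPB(V285A) 5hmC.

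Among the 311 values of named members, 5 changed sign. TTGCATAA (CEBPB(V285A), 5hmC minus C) was 10.0 after quantile normalization, against -19.8. CATTGCAA (strand difference, CREB1, 5hmC minus C) was 0.0266 after the asinh transform, against -5.14. With recomputed Z-scores T minus C was -1.87 for CGCTGCAA on CEBPB(V285A) 5mC (7.48), and on CREB1 5hmC -6.4 for CCATGCAA (8.22) and 5.46 for TTATGCAA (-18.7). Calls were lost for 106 of the 311 after the asinh transform, 49 after quantile normalization, 20 with recomputed Z-scores, and 25 of 122 with the random block. Saturated spots bound the highest probe intensities on the CREB1 5mC, CEBPB(V285A) 5mC and CREB1 5hmC arrays.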
